A study of Mus musculus with 12 samples.

Results

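The comparison described here set muscle of mice given amphiregulin (AREG) against muscle of mice given phosphate-buffered saline (PBS) at day 8 after injury, in animals depleted of regulatory T (Treg) cells. It rests on 6 of the 12 arrays of the study, 3 titled AREG and 3 titled PBS at day 8, and was made for each of the 19752 genes that had a probe set (transcript cluster) with exactly 1 gene symbol. A gene with several such clusters was represented by the one with the highest mean over the 12 arrays. Both groups were C57BL/6 mice, 8 weeks old, of the genotype Foxp3-DTR+, in which the promoter of Foxp3, the lineage factor of Treg cells, drives a receptor for diphtheria toxin. Cardiotoxin, a venom protein that destroys muscle fibres, was injected into the tibialis anterior muscle on day 0. Diphtheria toxin was given to both groups on alternate days from then on, so the PBS mice were Treg-depleted too. AREG or PBS went into the muscle on day 0 and into the peritoneum on alternate days thereafter. The other 6 arrays came from Foxp3-DTR- mice of the same strain and age at day 4, which received diphtheria toxin with AREG or PBS and kept their Treg cells.

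AREG is a ligand of the epidermal growth factor (EGF) receptor, a tyrosine kinase that passes its signal through adaptor proteins to the ERK kinases and to transcription factors such as the AP-1 family. Treg cells are known as a source of AREG in injured muscle, where the factor acts on muscle progenitor cells. In this injury monocytes enter first and clear dead fibres, macrophages then turn to a repair state rich in lysosomal and lipid-handling proteins, connective tissue cells lay down a provisional matrix, and satellite cells fuse into new fibres.

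Whole muscle RNA was measured, so that fewer cells of a type and less RNA per cell cannot be told apart. The tissue read as muscle in all 6 arrays: Acta1, the skeletal actin, lay between 13.77 and 13.87 on the log2 intensity scale, near the top of the array. The median intensity was 136.1, 135.1 and 133.7 in AREG replicates 1, 2 and 3, and 138.7, 138.2 and 140.2 in the PBS replicates. The interquartile range of the log2 values was 2.557, 2.61 and 2.496 with AREG, and 2.723, 2.67 and 2.636 with PBS. Each AREG array thus had a lower median and a narrower range than each PBS array. Foxp3 read 6.58, 6.75 and 6.66 in the AREG arrays and 6.51, 6.49 and 6.65 in the PBS arrays (values here and below are in the order of replicates 1, 2 and 3), which is below the median level of all genes (7.15). No undepleted group exists at day 8, so the depletion itself could not be checked. AREG replicate 3 stood apart from the other 5 arrays: it scored -39.4 on the first principal component (48.1% of the variance) against -2.3 to 12.01 in the others, and 362 genes lay at least 1 log2 unit from the mean of the other AREG arrays, against 6 to 128 such genes for the other arrays. Of the differences given below, those that move by more than 1.5 times without this array are therefore given with and without it. Separate animals per array are not stated in the labels, and p-values therefore measure only the spread between these samples.

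Of the 19752 genes, 1 passed at a Benjamini-Hochberg adjusted p of 0.05 in limma (0.00506%), the macrophage metalloelastase Mmp12, which fell. The second smallest adjusted p was 0.239, for Rcn3, and every other gene named below had an adjusted p of 0.599 or more, so their differences are given as measured values and not as changes. Without adjustment 1506 genes had a p under 0.05 (7.62%), 1101 lower with AREG (5.57%) and 405 higher (2.05%). For 1411 genes each AREG array lay below each PBS array (7.14%), and for 1394 genes each lay above (7.06%). Among the 9876 genes at or above the median level, however, groups without overlap were lower with AREG for 1021 (10.3%) and higher for 319 (3.23%). Whether the narrower range of the AREG arrays bears on this pattern by level was not tested. In mean 9641 genes (48.8%) were lower. Differences were small: the median absolute difference was 0.11 on the log2 scale and the median standard error (SE) 0.14. Groups without overlap and a difference of at least 0.58, a 1.5-fold change, were found for 95 lower and 20 higher genes. Without AREG replicate 3, 0 genes passed in limma, 594 were lower at an unadjusted p under 0.05 (3.01%) and 368 higher (1.86%).

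**Figure D1:**
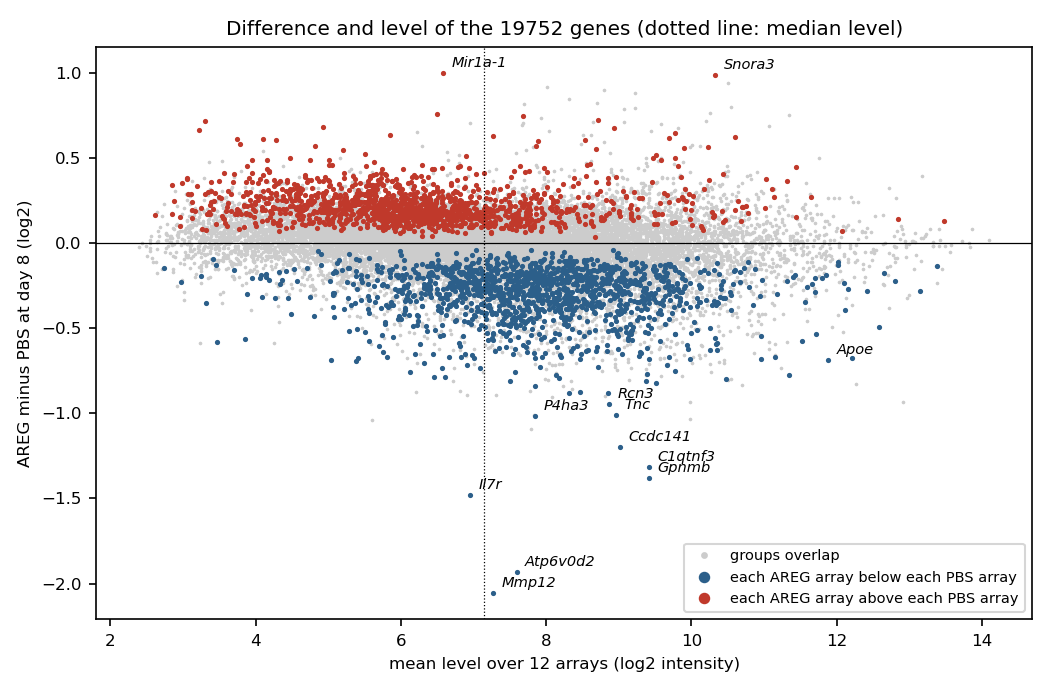
Difference between AREG and PBS arrays at day 8 (vertical, log2) against the mean level over the 12 arrays (horizontal, log2 intensity) for 19752 genes, 1 point each. Blue and red points are genes whose groups do not overlap; the blue points reach -2.06 (Mmp12) and lie mostly right of the dotted median level of 7.15, while the red points are denser to its left and reach 1.00 (Mir1a-1).

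Mmp12, an elastin-degrading protease secreted by macrophages, read 6.88, 6.20 and 6.39 in the AREG arrays and 8.84, 8.06 and 8.74 in the PBS arrays. The highest AREG array thus lay 1.18 log2 units below the lowest PBS array. It fell 4.16-fold, with a log2 difference of -2.06 ± 0.28 (SE; n = 3 in each group) and an adjusted p of 0.0482 in limma. Its size was nearly the same without AREG replicate 3 (-2.01 on the log2 scale), where the adjusted p in limma was 0.17. The adjusted p was also over the threshold without AREG replicate 2 (0.177), PBS replicate 1 (0.59) or PBS replicate 3 (0.492), and without 4 arrays of day 4 that share the pooled spread (AREG replicates 1, 2 and 3, and PBS replicate 2, at 0.281, 0.109, 0.0638 and 0.113). With 3 arrays in each group no exact permutation test can reach a p under 0.1, and the call depends on the spread pooled across genes and groups. At day 4 the difference was -1.52 ± 0.28 (adjusted p = 0.0198, limma).

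The sequences around start sites are shown for 4 of the lower genes because the EGF receptor signals to AP-1 factors, which bind the letters TGANTCA. The RefSeq promoter table (GRCm38.p6) gives 250 bases before to 50 after each start, read 5′ to 3′ along the gene; capitals mark the match. Mmp12 has a start with a match at chr9:7347124-7347423 (plus strand), and its window also holds TATAAA. Gpnmb, a glycoprotein of phagocytic macrophages, has one at chr6:49036268-49036567, Trem2, their lipid-sensing receptor, at chr17:48346151-48346450, and Shc1, an adaptor of the EGF receptor, at chr3:89421371-89421670, all on the plus strand.
Mmp12: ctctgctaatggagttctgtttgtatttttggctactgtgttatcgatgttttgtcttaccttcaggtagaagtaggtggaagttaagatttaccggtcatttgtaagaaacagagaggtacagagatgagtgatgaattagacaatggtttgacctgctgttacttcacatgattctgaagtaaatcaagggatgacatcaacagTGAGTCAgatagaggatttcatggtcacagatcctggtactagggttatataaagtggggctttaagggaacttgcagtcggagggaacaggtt
Gpnmb: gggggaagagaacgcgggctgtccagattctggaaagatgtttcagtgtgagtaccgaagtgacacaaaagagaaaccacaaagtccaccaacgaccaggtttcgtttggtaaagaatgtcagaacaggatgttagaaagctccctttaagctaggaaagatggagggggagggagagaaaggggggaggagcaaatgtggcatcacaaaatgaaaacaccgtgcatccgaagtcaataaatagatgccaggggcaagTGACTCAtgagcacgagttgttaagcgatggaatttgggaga
Trem2: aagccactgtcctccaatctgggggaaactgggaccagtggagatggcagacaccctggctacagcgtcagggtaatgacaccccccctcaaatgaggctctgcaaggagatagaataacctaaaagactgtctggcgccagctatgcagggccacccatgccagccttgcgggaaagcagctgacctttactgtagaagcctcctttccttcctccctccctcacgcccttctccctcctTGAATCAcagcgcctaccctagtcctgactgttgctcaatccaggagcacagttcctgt
Shc1: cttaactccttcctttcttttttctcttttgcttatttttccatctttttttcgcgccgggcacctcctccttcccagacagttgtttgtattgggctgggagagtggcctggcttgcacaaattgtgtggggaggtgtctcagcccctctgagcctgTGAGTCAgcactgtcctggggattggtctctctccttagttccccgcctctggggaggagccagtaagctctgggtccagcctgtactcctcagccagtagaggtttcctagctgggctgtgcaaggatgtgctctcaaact
Among the 70 genes at or above the median level that were lower by at least 0.58 without overlap, 50 had a promoter in the table, and 11 of these held TGANTCA on either strand (22.0%), among them Igf1, Col6a1 and Trim30a. The share was 8.04% of all 15483 measured genes with a promoter, 6.18% of the 7932 at or above the median level, and 7.81% of all 32851 promoters. In all 7 motifs were searched, chosen after the differences were known. The others, in the lower genes and in the genes at or above the median level, were found at these shares: TATAAA in 10 of 50 genes and 9.10%, GGGCGG in 48.0% and 69.8%, CATTCC in 16.0% and 14.1%, CCGGAAGT in 4.0% and 8.94%, GAGGAAGT in 2.0% and 3.52%, and TGACGTCA in 0% and 3.40%. A gene counted when any of its starts held the motif, and the lower genes had a mean of 1.36 starts against 1.23 in all genes. A match describes the letters only and does not show that a factor was bound.

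Besides Mmp12, 33 metalloproteases and inhibitors of the list were measured, 22 lower (48.8% of all genes were lower) and 11 higher. Their median was -0.15 on the log2 scale (-0.11 without AREG replicate 3). Over all genes the median was 0.01 (-0.02 without AREG replicate 3). Mmp19, a protease of macrophages and vessels, read 7.25, 7.13 and 6.70 with AREG and 8.02, 7.34 and 8.14 with PBS, a difference of -0.81 ± 0.25. Timp1, an inhibitor of these enzymes, read 8.04, 7.70 and 6.61 against 8.49, 8.16 and 8.32, a difference of -0.87 ± 0.25 that was -0.45 without AREG replicate 3. Both therefore showed groups that did not overlap, as 6 of the 33 did on the lower side (18.2%, against 7.14% of all genes). On the higher side 3 did (9.09%, against 7.06%): Mmp8, Timp4 and Adamts9, for which 4 of its other 5 clusters were higher too and 1 was lower. Timp4, an inhibitor expressed in muscle, read 8.73, 8.92 and 9.82 against 8.55, 8.69 and 8.58. That difference of 0.55 ± 0.26 came mostly from AREG replicate 3 and was 0.22 without it. The collagenase Mmp13 (-0.38 ± 0.21) and the membrane protease Mmp14 (-0.50 ± 0.23, and -0.16 without AREG replicate 3) overlapped between the groups, as did the gelatinase Mmp2 (-0.42 ± 0.21, then -0.14).

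**Figure D2:**
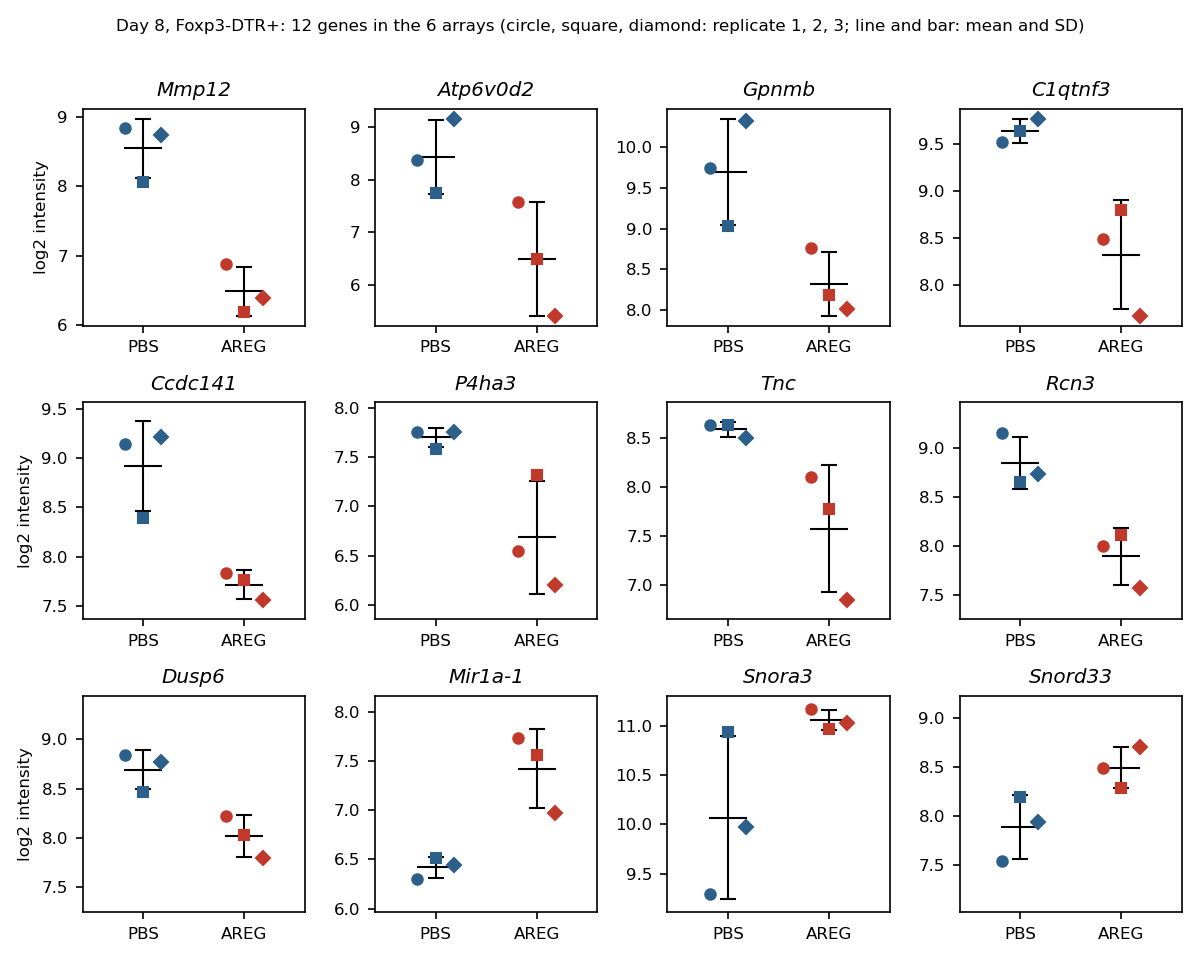
Log2 intensity (vertical) of 12 genes in the 3 PBS and the 3 AREG arrays of day 8, with circles, squares and diamonds for replicates 1, 2 and 3, and a line and bar for the mean and SD; each panel has its own scale. Mmp12 shows a difference of -2.06, whereas Atp6v0d2, C1qtnf3 and Tnc are lowest in AREG replicate 3 and Snora3 is spread over the PBS arrays.

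The EGF receptor family, its ligands and adaptors differed little. Of 25 listed genes 24 were measured (Areg itself was not analysed here), and 2 showed groups without overlap, both lower (8.33%, against 7.14% of all genes). The median difference was -0.04 (-0.08 to 0.01 over the other processing settings, and -0.08 without AREG replicate 3). For 12 of the 24 the sign of the difference turned in at least 1 of the 21 other settings, and these are not described singly. Egfr read 9.15, 8.97 and 8.63 with AREG and 9.18, 9.20 and 9.04 with PBS, a difference of -0.22 ± 0.14, which was -0.08 without AREG replicate 3. Shc1 read 7.49, 7.73 and 7.78 against 8.35, 8.03 and 8.44, a difference of -0.61 ± 0.14 that did not depend on AREG replicate 3 (-0.67 without it). Adam17, the protease that sheds AREG and other ligands from the membrane, read 9.13, 8.93 and 8.39 against 9.24, 9.14 and 9.30 (-0.41 ± 0.19, and -0.19 without AREG replicate 3). Hbegf, another ligand, overlapped between the groups (-0.25 ± 0.13).

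Among 36 immediate early and ERK feedback genes, which EGF receptor signalling is known to induce within minutes to hours, the median was -0.04 on the log2 scale (-0.10 to 0.01 over the other settings) and the members went both ways, 21 lower and 15 higher. In 6 of them each AREG array lay below each PBS array (16.7%, against 7.14% of all genes). In 1 each AREG array lay above (2.78%, against 7.06%). Dusp6, a phosphatase that ERK induces and that switches ERK off, read 8.22, 8.02 and 7.80 with AREG and 8.84, 8.47 and 8.77 with PBS. The difference was -0.68 ± 0.15, and -0.57 without AREG replicate 3, so it was seen in all AREG arrays. The zinc finger factor Egr2 read 7.18, 7.05 and 6.90 against 7.52, 7.43 and 7.78 (-0.53 ± 0.14). The AP-1 subunit Fos read 7.09, 6.73 and 7.13 against 7.47, 7.35 and 7.35 (-0.41 ± 0.13). Egr1 was lower by a similar amount (-0.63 ± 0.21) with 1 AREG array, at 7.87, level with the lowest PBS array, at 7.84. Dusp7, a related phosphatase, was the largest difference in the other direction (0.36 ± 0.14, and 0.18 without AREG replicate 3) and overlapped between the groups.

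All 24 pan-macrophage markers were lower in mean, with a median of -0.57, but 0 of 24 showed groups without overlap, 9 were under an unadjusted p of 0.05, and limma called 0. The mean level of this list was 0.35, -0.14 and -0.99 in the AREG arrays and 0.15, 0.04 and 0.60 in the PBS arrays, relative to the mean of the 6 arrays. AREG replicate 1 was thus above PBS replicates 1 and 2, and without AREG replicate 3 the median was -0.15. Cd68, a lysosomal membrane protein of macrophages, showed it: 10.01, 9.40 and 8.58 against 9.94, 9.75 and 10.36, a difference of -0.69 ± 0.28 that was -0.31 without AREG replicate 3. The Fc receptor and phagocytosis list behaved alike, with 17 of 17 lower and a median of -0.55 (-0.20 without AREG replicate 3). Its 1 member without overlap was the receptor kinase Axl (5.88%, against 7.14% of all genes).

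In the list of repair and lipid-handling macrophages 9 of 21 measured members had groups without overlap, all lower (42.9%, against 7.14% of all genes). The median was -0.47 (-0.24 without AREG replicate 3, and -0.25 without PBS replicate 3). Its mean level was 0.00, -0.21 and -0.49 in the AREG arrays and 0.25, -0.03 and 0.48 in the PBS arrays, so that AREG replicate 1 lay above PBS replicate 2 and the list as a whole overlapped. Gpnmb read 8.77, 8.19 and 8.02 with AREG and 9.75, 9.03 and 10.33 with PBS, a difference of -1.38 ± 0.34. Atp6v0d2, part of the proton pump that acidifies lysosomes and is abundant in osteoclasts, read 7.57, 6.49 and 5.42 against 8.38, 7.75 and 9.16. Its difference of -1.93 ± 0.53 was the second largest of all genes and came with a wide spread in both groups. Il7r, the interleukin-7 receptor, found on lymphocytes and some macrophages, read 7.06, 6.37 and 5.77 against 8.06, 7.16 and 8.42 (-1.48 ± 0.42). Apoe, a lipid carrier that macrophages secrete, read 11.53, 11.34 and 10.86 against 11.85, 11.81 and 12.13, a tighter difference of -0.69 ± 0.17. Trem2 read 7.72, 7.62 and 7.09 against 7.92, 7.93 and 8.58 (-0.67 ± 0.22). Plin2, which coats lipid droplets, was -0.53 ± 0.16, with AREG arrays between 9.49 and 9.72 and PBS arrays between 9.82 and 10.45. Among lysosomal genes 24 of 29 were lower (median -0.23), including the collagen-degrading cathepsin Ctsk at 8.36, 7.80 and 7.04 against 8.69, 8.65 and 8.51 (-0.88 ± 0.24, and -0.54 without AREG replicate 3).

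Markers of alternatively activated and resident macrophages, 20 in number, were less shifted, with a median of -0.13 (-0.09 without AREG replicate 3). Only Cbr2, a carbonyl reductase of resident macrophages, had groups without overlap there (5%, against 7.14% of all genes). It read 9.09, 9.25 and 8.87 with AREG against 10.53, 9.29 and 9.54 with PBS. That separation was 0.05 log2 units at its narrowest, and the mean was set by PBS replicate 1. Of 20 inflammatory monocyte genes and chemokines 17 were lower (median -0.22, and -0.08 without AREG replicate 3), with 0 groups without overlap and 0 called by limma, against 2 at an unadjusted p under 0.05.

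**Figure D3:**
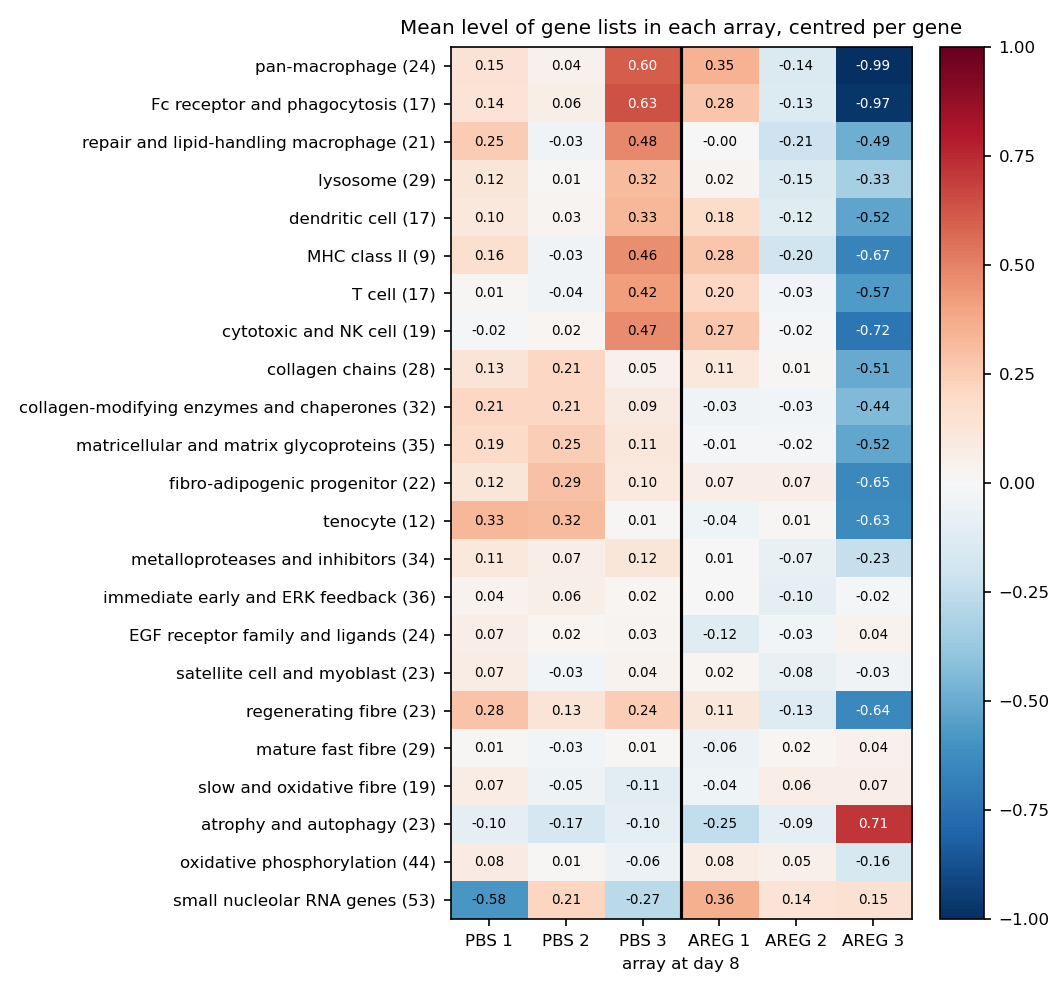
Mean level of 23 gene lists (number of measured genes in brackets) in the 6 arrays of day 8, as log2 distance from the mean of the 6 arrays, blue for low and red for high. AREG replicate 3 holds the lowest value of the immune and matrix lists (-0.99 for pan-macrophage genes), while the collagen-modifying and matricellular lists are below 0 in all 3 AREG arrays and above 0 in all 3 PBS arrays.

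Genes of collagen maturation were lower with AREG in 30 of 32 measured members, with a median of -0.35, which was -0.15 without AREG replicate 3. In 13 of them (40.6%) the groups did not overlap, all on the lower side. That share was 7.14% of all genes and 10.3% of those at or above the median level, where 31 of the 32 lay. The mean level of the list was -0.03, -0.03 and -0.44 in the AREG arrays and 0.21, 0.21 and 0.09 in the PBS arrays, so that here, unlike in the pan-macrophage list, each AREG array lay below each PBS array. Rcn3, a calcium-binding protein of the endoplasmic reticulum involved in collagen secretion, read 8.01, 8.11 and 7.57 with AREG and 9.15, 8.65 and 8.73 with PBS. The difference of -0.95 ± 0.16 had the second smallest p of all genes and was -0.78 without AREG replicate 3. P4ha3, a subunit of prolyl hydroxylase, which stabilises the collagen helix, read 6.55, 7.32 and 6.20 against 7.76, 7.59 and 7.76 (-1.01 ± 0.24). Fkbp14, a prolyl isomerase for collagen, read 7.10, 7.23 and 6.74 against 7.83, 7.56 and 7.55 (-0.62 ± 0.16). The lysyl hydroxylase Plod2 (-0.67 ± 0.21), the lysyl oxidase-like Loxl3 (-0.56 ± 0.16) and Cthrc1, secreted by activated fibroblasts (-0.63 ± 0.19), also had groups without overlap, but without AREG replicate 3 their differences were -0.39, -0.37 and -0.41.

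Matricellular proteins and matrix glycoproteins, which tune how cells hold on to the matrix, gave a similar count: 33 of 35 lower, a median of -0.39 (-0.19 without AREG replicate 3), 14 without overlap on the lower side (40.0%) and 1 on the higher side. Tnc, tenascin C of injured and tendon tissue, read 8.10, 7.77 and 6.86 with AREG and 8.63, 8.63 and 8.50 with PBS, a difference of -1.01 ± 0.30 that was -0.65 without AREG replicate 3. Thbs2, a thrombospondin of fibroblasts, read 9.05, 9.10 and 8.81 against 9.46, 9.44 and 9.66 (-0.53 ± 0.13). Thbs4, the thrombospondin of muscle and tendon, read 11.35, 11.39 and 10.67 against 11.63, 11.65 and 11.73 (-0.53 ± 0.16, and -0.30 without AREG replicate 3). In these genes the 3 PBS arrays lay close together and the AREG arrays below them. Mxra8, a membrane protein of fibroblasts, read 9.90, 9.93 and 9.50 against 10.57, 10.17 and 10.36 (-0.59 ± 0.14), and the microfibril protein Mfap2 was -0.43 ± 0.14.

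The collagen chains themselves were less uniform. Of 28, 21 were lower with a median of -0.12 (-0.06 without AREG replicate 3), and 6 (21.4%) had groups without overlap, all lower. That share was 7.14% of all genes and 10.3% of those at or above the median level, where 24 of the 28 lay. Col1a1, the main chain of fibrillar collagen, read 11.08, 10.88 and 9.53 with AREG and 11.32, 11.36 and 11.14 with PBS. Its difference of -0.78 ± 0.29 dropped to -0.29 without AREG replicate 3, and Col1a2 (-0.68 ± 0.24, then -0.29) and Col14a1 (-0.82 ± 0.30, then -0.29) did likewise.

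Genes of fibro-adipogenic progenitors, the matrix-producing mesenchymal cells of muscle, were lower in 21 of 22 (median -0.29), but in 13 of 22 without AREG replicate 3 (median -0.05). Sfrp1, a secreted Wnt inhibitor, read 7.35, 7.49 and 7.28 with AREG and 7.86, 8.21 and 7.99 with PBS, a difference of -0.64 ± 0.12 that was -0.60 without AREG replicate 3. C1qtnf3, a secreted relative of adiponectin, read 8.50, 8.79 and 7.68 against 9.52, 9.63 and 9.77 (-1.32 ± 0.26, and -0.99 without AREG replicate 3). The groups stood 0.37 apart for Sfrp1 and 0.72 for C1qtnf3 at the narrowest point. The progenitor marker Pi16 (-0.38 ± 0.16, and -0.18 without AREG replicate 3) had groups without overlap with a gap of 0.03 log2 units. Tenocyte genes were lower in 11 of 12 with a median of -0.43 (-0.18 without AREG replicate 3 and -0.12 with array quality weights), against 0.22 at day 4. Chad, a cartilage and tendon matrix protein, lay between 8.57 and 9.14 in the AREG arrays of day 8 and read 10.16, 9.29 and 9.31 in the PBS arrays. Its difference was -0.68 ± 0.32 at day 8 and 1.24 at day 4. In limma it did not pass at day 4 (adjusted p = 0.0511). Nor did it pass the test of the difference between day 8 and day 4 (adjusted p = 0.557, limma).

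Chaperones of the endoplasmic reticulum, through which secreted matrix passes, were lower in 22 of 26 (median -0.21, and -0.13 without AREG replicate 3), 6 of them without overlap (23.1%). Ssr1, a subunit of the translocon, read 9.62, 9.61 and 9.36 against 10.01, 9.87 and 9.90 (-0.39 ± 0.11). Asns, asparagine synthetase and a target of the stress factor ATF4, read 7.02, 6.77 and 6.68 against 7.57, 7.13 and 7.39 (-0.54 ± 0.13). The ATF4 list as a whole held 14 lower and 8 higher of 22 (median -0.08, and -0.12 without AREG replicate 3). Growth factors and cytokines of repair were lower in 21 of 29 (median -0.12, and -0.08 without AREG replicate 3). The groups did not overlap for 7 on the lower side (24.1%, against 7.14% of all genes) and 1 on the higher side (3.45%, against 7.06%). Pdgfc, a growth factor for mesenchymal cells, read 7.64, 7.43 and 7.26 against 8.06, 7.72 and 8.16 (-0.53 ± 0.17). Igf1, a growth factor for muscle fibres made by macrophages among others, read 9.34, 9.13 and 7.96 against 9.49, 9.50 and 9.43, a difference of -0.66 ± 0.25 that was -0.24 without AREG replicate 3. Hgf, which wakes satellite cells, was -0.46 ± 0.15.

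Markers of newly formed fibres were lower in 21 of 23 (median -0.36, and -0.17 without AREG replicate 3). The groups did not overlap for 4 of them (17.4%): Ccdc141, Ncam1, Dlk1 and Ankrd1. That share was 7.14% of all genes and 10.3% of those at or above the median level, as all 23 were. Ccdc141, a coiled-coil protein of muscle, read 7.83, 7.76 and 7.56 with AREG and 9.15, 8.39 and 9.22 with PBS. The AREG arrays lay close together and the difference was -1.20 ± 0.27 (-1.12 without AREG replicate 3), with its other 4 clusters of the same sign. Ncam1, an adhesion molecule of regenerating fibres, read 9.63, 9.46 and 9.19 against 10.04, 9.88 and 10.14 (-0.59 ± 0.18). Actc1, the cardiac actin of young fibres, overlapped between the groups and was lowest in AREG replicate 3 (-0.93 ± 0.29, and -0.43 without it). Satellite cell and myoblast genes showed no common direction, with 13 lower and 10 higher of 23. Their median was -0.03 (-0.07 without AREG replicate 3). Mymk, which fuses myoblasts, was -0.68 ± 0.23 (-0.42 without AREG replicate 3) and overlapped between the groups.

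Mature fast fibre genes differed by a median of -0.01 over 29 members (-0.03 without AREG replicate 3). Slow fibre genes differed by 0.06 over 19. Myl3, the slow myosin light chain, read 11.05, 11.03 and 11.27 with AREG and 10.68, 10.71 and 10.10 with PBS, a difference of 0.62 ± 0.29. Tcap, a cap protein of the sarcomere, read 11.19, 11.28 and 11.54 against 10.81, 11.08 and 11.00 (0.38 ± 0.13). Both had groups without overlap, as did 4 lower genes: the calcium buffers Casq2 (-0.46, and -0.19 without AREG replicate 3) and Pvalb (-0.13), the sarcomere protein Myom3 (-0.27) and the enzyme Gpd1 (-0.29, then -0.19). In all, groups without overlap were lower for 2 and higher for 3 genes of each list. These were 6.9% and 10.3% of the fast list, and 10.5% and 15.8% of the slow list. The shares were 7.14% and 7.06% of all genes, and 10.3% and 3.23% of those at or above the median level. All 29 fast fibre genes and 18 of the 19 slow fibre genes lay there. Against that level, the fast list had a smaller share on the lower side and a larger share on the higher side. Atrophy and autophagy genes were higher in 17 of 23 with a median of 0.20, but this turned to -0.05 without AREG replicate 3, whose mean level for the list was 0.71 against -0.25 to -0.09 in the other 5 arrays. Fbxo32, the ubiquitin ligase atrogin-1, read 10.32, 11.00 and 12.55 against 10.30, 10.53 and 10.64, so its difference of 0.80 ± 0.37 was 0.17 without that array. Eif4ebp1, a repressor of translation, was the 1 member without overlap (4.35%). On the higher side that share was 7.06% of all genes. It was 3.23% of those at or above the median level, where 22 of the 23 lay. Eif4ebp1 read 9.70, 9.89 and 10.87 against 9.56, 9.47 and 9.58 (0.62 ± 0.21, and 0.26 without AREG replicate 3).

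Lymphocyte genes were lower mainly in AREG replicate 3. T cell genes had a median of -0.22 over 17 members, which was -0.02 without that array, and cytotoxic and NK cell genes -0.35 over 19, which was -0.05. MHC class II genes had a median of -0.46 over 9 members (-0.13 without it) and dendritic cell genes -0.32 over 17 (-0.05 without it). The 2 defining chains Cd3e (-0.47 ± 0.23, and -0.23 without AREG replicate 3) and Cd3g (-0.81 ± 0.32, then -0.32) overlapped between the groups. Among 20 Treg-associated genes 13 were lower and 7 higher, and the median was -0.09 (-0.01 without AREG replicate 3). Il2ra, the interleukin-2 receptor alpha chain, read 6.21, 6.18 and 6.31 with AREG and 6.42, 6.61 and 6.65 with PBS (-0.33 ± 0.11). Ctla4, an inhibitory receptor, read 5.54, 5.58 and 5.48 against 5.86, 5.95 and 5.94 (-0.39 ± 0.12), and Klrg1, a receptor of effector cells, 5.55, 5.74 and 5.37 against 6.03, 6.08 and 6.27 (-0.57 ± 0.15). These 3 of the 20 separated the groups on the lower side (15%, against 7.14% of all genes), at levels below the median of all genes. Gpr83, an orphan receptor of Treg cells, separated the groups in the other direction (0.18 ± 0.11), as the 1 member that did (5%, against 7.06% of all genes). Foxp3 overlapped (0.11 ± 0.11). Neutrophil genes, 0 of 16 of them at or above the median level, had a median of 0.07 (0.03 without AREG replicate 3).

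**Figure D4:**
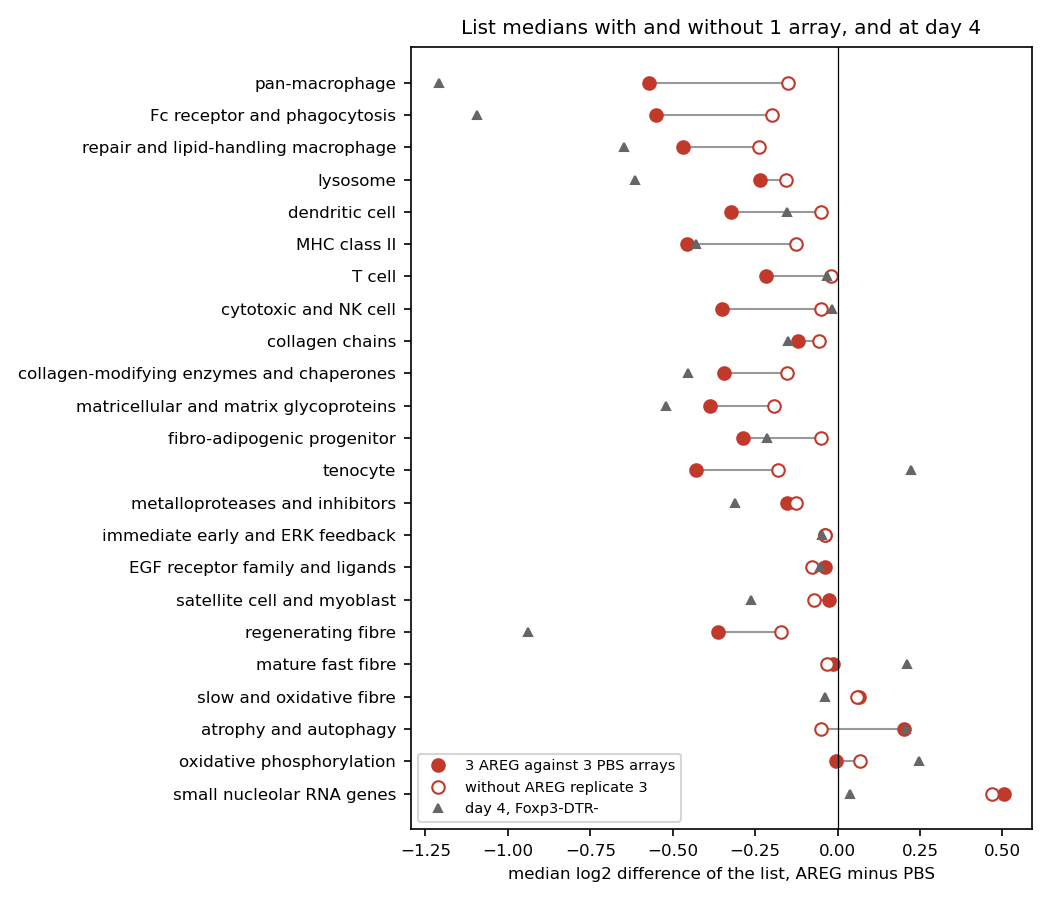
Median log2 difference of 23 gene lists between AREG and PBS (horizontal), with filled circles for all arrays of day 8, open circles without AREG replicate 3, and triangles for day 4. The pan-macrophage median moves from -0.57 to -0.15, the small nucleolar RNA median from 0.50 to 0.47.

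On the higher side, small nucleolar RNA genes, which guide the modification of ribosomal and spliceosomal RNA and mostly lie in introns of other genes, were higher in most members. Of 53 measured, 47 were higher with AREG, 24 of them at an unadjusted p under 0.05 (2.05% of all genes were), the median was 0.50 (0.47 without AREG replicate 3), and 12 had groups without overlap on the higher side (22.6%, against 7.06% of all genes). Snora3 read 11.17, 10.97 and 11.03 with AREG and 9.29, 10.94 and 9.97 with PBS, a difference of 0.99 ± 0.29. The AREG arrays lay together while the PBS arrays were spread widely, and without PBS replicate 1 the difference was 0.60. Snora41 read 6.21, 6.20 and 6.22 against 5.30, 5.84 and 5.59 (0.63 ± 0.15). Snord33 read 8.49, 8.29 and 8.70 against 7.55, 8.19 and 7.94 (0.60 ± 0.17). The mean level of the list was 0.36, 0.14 and 0.15 in the AREG arrays and -0.58, 0.21 and -0.27 in the PBS arrays, so PBS replicate 2 lay above AREG replicates 2 and 3. The median was 0.31 without PBS replicate 1 and 0.68 without PBS replicate 2. Copies of these genes are short and alike in sequence, so probe sets can pick up more than 1. At day 4 the median of the list was 0.04. Vaultrc5, a vault RNA gene, showed the same pattern as Snora3 at 9.60, 9.30 and 9.35 against 8.09, 9.29 and 8.69.

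The largest positive difference of all genes was that of Mir1a-1, a muscle microRNA gene, which read 7.73, 7.56 and 6.97 with AREG and 6.31, 6.51 and 6.44 with PBS (1.00 ± 0.25, and 1.23 without AREG replicate 3). Its 5p arm from the RefSeq table (GRCm38.p6) is shown because the gene leads the higher side. The other arm, 3p, is the form usually called miR-1 and is not shown. The 5p arm lies at chr2:180389057-180389079, plus strand, with the seed, bases 2 to 8, in capitals.
mmu-miR-1a-1-5p: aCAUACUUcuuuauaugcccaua
Mir133a-2, a gene of another muscle microRNA, read 7.92, 7.91 and 7.58 against 7.04, 7.20 and 7.28 (0.63 ± 0.20). Both genes therefore separated the groups with AREG replicate 3 nearest to the PBS arrays, and their differences at day 4 were 0.20 and 0.09. Of 21 microRNA genes measured, 4 lay at or above the median level of all genes. In mean 14 of the 21 were higher, 3 without overlap (14.3%, against 7.06% of all genes). The third was Mir10a at 3.79, 3.82 and 3.64 against 3.33, 3.44 and 3.38. Mir206, a microRNA of regenerating muscle, was the 1 gene with groups apart on the lower side (4.76%, against 7.14% of all genes). It read 4.00, 4.09 and 4.28 against 4.41, 4.48 and 4.42. Mir10a and Mir206 thus lay far below the median level of 7.15. The array reads RNA of the gene locus, and whether these values reflect the mature microRNA was not tested.

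Lists of metabolic genes had small medians. Oxidative phosphorylation genes had a median of -0.01 over 44 members (0.07 without AREG replicate 3), and glycolysis genes -0.06 over 20. Fatty acid oxidation genes had a median of 0.11 over 23 (-0.01 without AREG replicate 3). Of these 23, 18 were higher, 4 of them without overlap (17.4%, against 3.23% of genes at or above the median level, as all 23 were). Without AREG replicate 3, 12 of the 23 were lower. Of 21 adipocyte genes 9 were lower and 12 higher, with a median of 0.09 (0.02 without AREG replicate 3). On the lower side 2 had groups without overlap (9.52%, against 7.14% of all genes). Among them was Scd1, the desaturase that makes monounsaturated fatty acids, with the most negative difference of the list. It read 9.86, 9.91 and 9.20 with AREG and 10.40, 10.66 and 10.29 with PBS (-0.80 ± 0.22). The iron carrier Trf read 9.12, 8.93 and 8.83 against 9.56, 9.29 and 9.62 (-0.53 ± 0.14).

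Against day 4, where AREG and PBS were compared in Foxp3-DTR- mice and 573 genes passed in limma (2.90%), 417 of them lower (2.11%), fewer genes were called at day 8. Of the 417 genes lower at day 4, 402 were also lower in mean at day 8 (96.4%, against 48.8% of all genes) and 131 had groups without overlap (31.4%, against 7.14%). Of the 156 higher at day 4, 95 were higher in mean at day 8 (60.9%, against 51.2%) and 7 had groups without overlap (4.49%, against 7.06%). Across the 19752 genes, which are not independent replicates, the differences at day 8 and day 4 correlated at r = 0.50. A test of the difference between the settings found 0 genes in limma (interaction term, adjusted p under 0.05), with 1160 at an unadjusted p under 0.05 (5.87%). Day and genotype changed together, so neither can be told apart from the other. P4ha3 was -1.01 at day 8 and -1.31 at day 4, Rcn3 -0.95 and -0.90, and C1qtnf3 -1.32 and -1.44. Dusp6 (-0.68 at day 8, -0.27 at day 4) and Scd1 (-0.80 and 0.66) differed more between the settings, without passing the test.

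**Figure D5:**
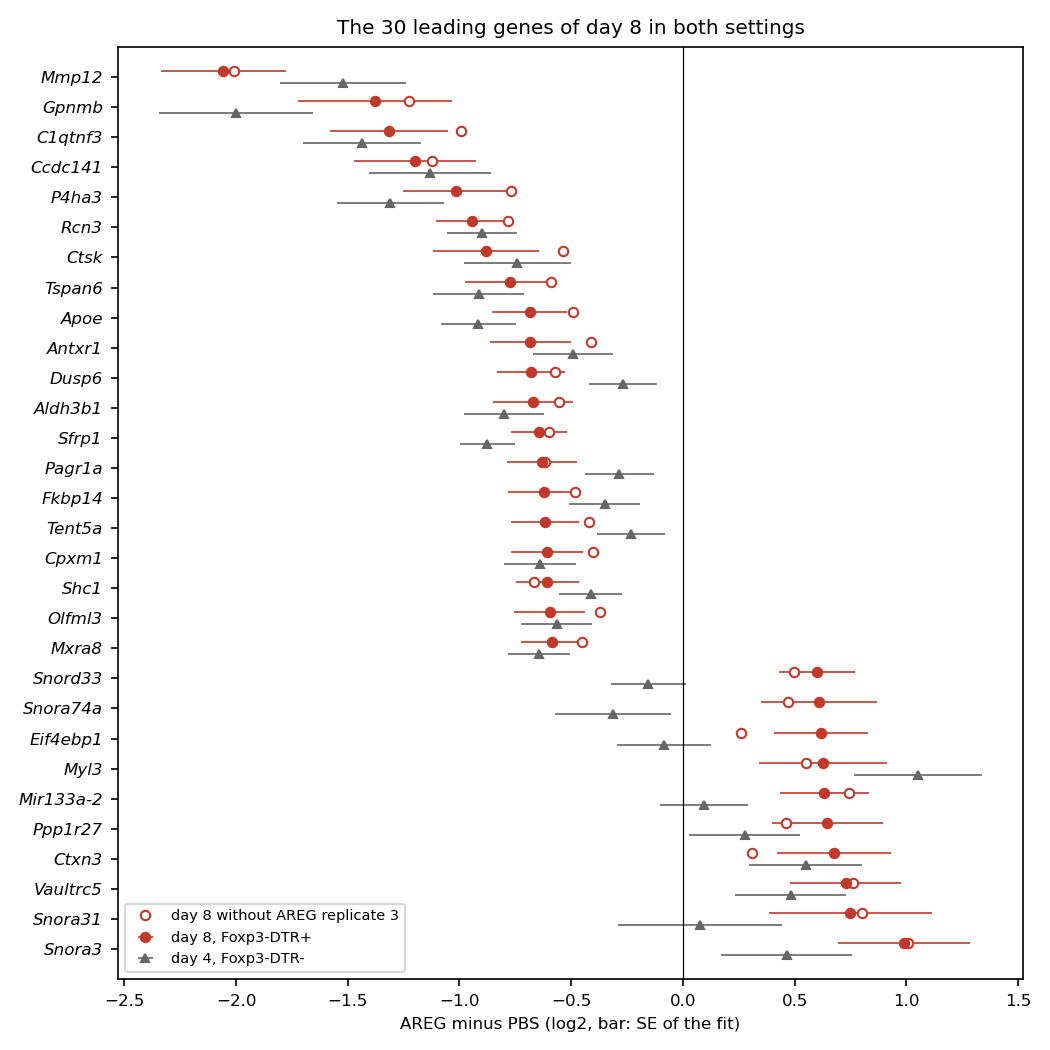
Log2 difference between AREG and PBS (horizontal, bar for the SE) of the 20 lower and 10 higher genes that lead at day 8, with filled circles for day 8, open circles for day 8 without AREG replicate 3, and triangles for day 4. The lower genes from Mmp12 (-2.06) to Mxra8 (-0.59) are below 0 in both settings, whereas most of the higher genes are nearer 0 at day 4.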

How the data were processed

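Whole muscle RNA was measured on Affymetrix Mouse Gene 1.0 ST arrays. The submitters' processing notes name Affymetrix Power Tools and RMA, a method of background correction, equalisation between arrays and summary of the probes of a cluster. Which versions, build and annotation were used is not given in the sources. As deposited by the authors, the table held linear intensity values from 4.65 to 21512.5 for 24922 clusters, with 0 missing. RMA can compress differences of dim genes. The intensities were taken to log2 with no pseudocount or filter. The array's gene table gave 1 symbol to 21425 clusters, several to 1399 and none to 2098; 921 of the 19752 genes had several clusters. The Entrez numbers of 21347 clusters matched RefSeq (GRCm38.p6). The model was a limma fit (version 3.58.1, R 4.3.3) of 4 group means over 12 arrays with moderated variances (lmFit, eBayes; 8 residual and 7.1 prior degrees of freedom), two-sided, with Benjamini-Hochberg adjustment over all genes and a threshold of 0.05. SE come from this fit, and precision is limited by the number of arrays.

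The text names genes that passed; up to 20 per direction of smallest p at or above the median level, without overlap and with a difference of at least 0.58 (predicted, Rik, LOC, ribosomal protein and olfactory or vomeronasal receptor genes left out); up to 6 of smallest p per list; members behind counts of 5 or fewer; and Foxp3, Egfr, Mmp12 and the EGF receptor and metalloprotease lists. This rule covers 359 genes, of which the text describes 90. Acta1, as a check of the tissue, Mir206 and Pvalb were added after their values were seen. The 53 lists (1203 of 1302 members measured) and all members were chosen with earlier results of these data known, so lists have counts and medians but no test. As 72 genes stood in more than 1 list, the counts of different lists partly rest on the same genes. The fit was tested on simulated data. Alternatives were fitting only the 6 arrays, array quality weights, trended and robust eBayes, leaving out genes under the median level, repeated quantile normalisation, centring, a pseudocount of 32, the mean over a gene's clusters, the replicate number as a block, and each of the 12 arrays left out.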

Additional observations from a re-analysis of the deposited data

Results flagged for a closer look

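In 67 genes (0.339%) the AREG and PBS arrays did not overlap at either time. Their order was opposite at day 8 (Foxp3-DTR+) and day 4 (Foxp3-DTR-). With 3 arrays in each group, a gene without any effect separates fully, in either direction, with a probability of 0.1 at each time. A share this small can therefore arise without any effect. Of the 67 genes, 7 fell under the naming rule. Mmp8, the neutrophil collagenase, was 0.30 at day 8 and -0.50 at day 4 on the log2 scale. Il2ra was -0.33 and 0.35, Gpd1, a glycerol phosphate dehydrogenase of fast fibres, -0.29 and 0.46, and Reck, a membrane inhibitor of metalloproteases, -0.21 and 0.22. Mef2c, a muscle transcription factor, was -0.20 and 0.21, and Etv1, an ETS factor, -0.25 and 0.13. Rps19, a ribosomal protein gene, was 0.23 and -0.59. Without AREG replicate 3 Gpd1 was -0.19 and Mef2c -0.13 at day 8. None of these 7 passed limma's test of the difference, with adjusted p between 0.548 (Rps19) and 0.795 (Etv1 and Mef2c), and day and genotype cannot be told apart.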

How the results depend on the processing

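Mmp12 was lower in all 21 alternatives, by values from -2.37 to -1.73, but its adjusted p ran from 7.89e-05 to 0.59 and was under 0.05 in 5 of 21. It was over 0.05 at -2.06 in a fit of the 6 arrays alone, with trend and robust options, with the filter at the median level, with the mean over clusters and with the replicate block, at -1.98 with repeated quantile normalisation, at -2.01 after centring and at -1.73 with the pseudocount. Leaving out 1 array gave values from -2.30 to -1.91, and 0 to 1 genes called. The same 8 alternatives called 0 genes at day 8 in limma, and fits that called 0 had 835 to 2150 genes at an unadjusted p under 0.05. Array quality weights, which gave AREG replicate 2 a weight of 7.43 and replicate 3 one of 0.32, called 1192 genes (735 lower, 457 higher), including 46 of the 92 genes named, and 2232 for the difference between the settings, against 0 in every other limma fit of it (639 to 2068 at an unadjusted p under 0.05). Same-numbered AREG and PBS arrays had residual correlations of -0.198, 0.123 and -0.003, which show no pairing by number. With 3 arrays per group these values cannot exclude it. The replicate block called 0 genes. Of the 359 genes under the naming rule 35 changed sign in at least 1 alternative, among them 12 of 24 EGF receptor family genes and 9 of 34 metalloproteases and inhibitors. The 92 genes described with values, chosen from the rest, hold none of these 35, and Acta1 changed sign in 1. Beyond these genes, 34 of 53 list medians kept their sign in all. The cause of these differences was not tested. With 3 arrays per group, differences near the median SE of 0.14 are not detectable.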

Other observations

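Among 3497 clusters with no symbol or several symbols, 0 passed at day 8 in limma and 157 were under an unadjusted p of 0.05 (4.49%). Type I interferon response genes were lower in 20 of 24 (median -0.16, and -0.13 without AREG replicate 3). The groups did not overlap for 4 of them (16.7%), Trim30a, Oas1a, Oas3 and Oasl2. That share was 7.14% of all genes and 10.3% of those at or above the median level, where 21 of the 24 lay. Trim30a, an interferon-induced TRIM protein, read 9.13, 8.93 and 8.54 with AREG and 9.49, 9.34 and 9.63 with PBS (-0.62 ± 0.20). Heme and iron genes were lower in 10 of 18 (median -0.08), and Tfrc, the transferrin receptor, read 10.35, 9.86 and 8.10 against 10.40, 10.29 and 10.43, so that its difference of -0.93 ± 0.37 was -0.26 without AREG replicate 3.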
